A study of Mus musculus with 8 samples.

Results

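The 10 genes followed here belong to the epidermal growth factor (EGF) family and were measured in RNA from mouse ear epidermis: the 7 ligands Epgn, Ereg, Areg, Btc, Hbegf, Tgfa and Egf and the 3 receptors Egfr, Erbb2 and Erbb3. They were taken by name from the 51912 gene identifiers of the count files, and each of the 10 was among the 16512 genes with enough counts to be tested. RNA had been sequenced from ear epidermal sheets of 8 mice aged 8 weeks, 4 labelled A20KIKO and 4 labelled A20WT, with 1 library per mouse. Both groups were homozygous for A20F, a conditional allele of Tnfaip3, which encodes the ubiquitin-editing enzyme A20, a brake on NF-kB signalling. The A20KIKO mice also carried Krt5-CreERT2, a Cre recombinase that tamoxifen activates and that the Krt5 promoter expresses in basal keratinocytes, and the A20WT mice lacked it. All mice received 1 mg of tamoxifen by intraperitoneal injection in each of 2 injections on consecutive days and tissue was taken 7 days after the first injection. The comparison asks which transcripts differ after induced deletion of A20 in keratinocytes, and the presence of Cre is part of the difference.

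EGF family ligands are made as membrane-anchored precursors that proteases release from the cell surface. They bind the receptor EGFR, which pairs with itself or with the related receptors ERBB2 and ERBB3 and signals through the RAS-ERK and PI3K pathways. In the epidermis these signals govern keratinocyte proliferation, migration in wounds, hair growth and the balance between growth and differentiation. The ligands differ in their receptors: epigen (Epgn), amphiregulin (Areg), TGF-alpha (Tgfa) and EGF (Egf) act on EGFR, whereas epiregulin (Ereg), betacellulin (Btc) and HB-EGF (Hbegf) can also act on ERBB4.

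The ligand genes Epgn, Ereg, Areg and Btc lie together on chromosome 5, between 91027464 and 91402994 (GRCm38). The starts of Ereg, Areg and Btc lie 47.2, 112 and 376 kb from that of Epgn, and Btc is on the opposite strand to the others. Elsewhere in the genome lie Tgfa on chromosome 6 (86195223 to 86275719), Egf on chromosome 3 (129677565 to 129755316), Egfr and Erbb2 on chromosome 11 (16752203 to 16918158 and 98412470 to 98437716) and Erbb3 on chromosome 10 (128567523 to 128589652). Promoter windows of 300 bases, from 250 bases before to 50 bases after the start, are given for the chromosome 5 ligands Epgn, Areg and Btc. Ereg had no promoter entry. Between the groups, Epgn rose, Btc fell and Areg did not pass the test described further on. The sequences are from RefSeq on GRCm38.p6, read 5′ to 3′ on the strand of the gene, with any TATA element (TATAAA on either strand) in capitals. The Epgn window is chr5:91027267-91027566 on the plus strand, the Areg window chr5:91139349-91139648 on the plus strand and the Btc window chr5:91402945-91403244 on the minus strand.
Epgn: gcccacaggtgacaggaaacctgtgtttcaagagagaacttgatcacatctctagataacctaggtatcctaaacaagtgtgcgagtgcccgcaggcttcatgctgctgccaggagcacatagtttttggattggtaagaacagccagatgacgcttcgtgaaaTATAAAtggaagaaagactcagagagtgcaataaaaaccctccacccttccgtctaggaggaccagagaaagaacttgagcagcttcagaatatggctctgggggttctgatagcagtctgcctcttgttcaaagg
Areg: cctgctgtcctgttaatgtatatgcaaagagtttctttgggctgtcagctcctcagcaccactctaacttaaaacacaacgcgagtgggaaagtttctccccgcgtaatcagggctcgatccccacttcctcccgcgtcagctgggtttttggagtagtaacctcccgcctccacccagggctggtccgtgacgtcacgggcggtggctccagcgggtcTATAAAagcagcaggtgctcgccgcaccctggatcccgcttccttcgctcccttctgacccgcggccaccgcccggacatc
Btc: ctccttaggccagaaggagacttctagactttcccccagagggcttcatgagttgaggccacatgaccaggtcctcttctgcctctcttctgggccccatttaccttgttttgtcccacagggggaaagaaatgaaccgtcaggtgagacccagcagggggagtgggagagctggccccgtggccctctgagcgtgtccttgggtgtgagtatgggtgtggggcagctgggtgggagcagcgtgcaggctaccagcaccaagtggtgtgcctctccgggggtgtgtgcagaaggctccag
Counted from the RefSeq start on which each window is placed, the TATA element lies 86 bases before the start for Epgn and 31 for Areg. The RefSeq start of Epgn lies downstream of the annotated gene start of 91027464 given above, and the element is closer to that gene start. Of all 32851 RefSeq promoter windows, 13.6% hold a TATA element. The Btc window holds no match to those letters. The Epgn, Areg and Btc windows also held no match, on either strand, to TGANTCA (the AP-1 motif, in 7.81% of windows), the core of the interferon-stimulated response element (3.44%), TTCNNNGAA (STAT, 8.30%), TGACNNNGC (the core of the antioxidant response element, 12.4%) or the NF-kB motif (4.51%).

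Library totals ran from 40451075 to 89624373 counts. Tnfaip3 was 55.0 to 90.9 CPM (counts scaled to library size with TMM factors) in the libraries labelled A20KIKO and 13.5 to 19.6 CPM in those labelled A20WT. This direction is opposite to the label, but the count covers the whole gene, including exons outside a deleted part, and does not test the deletion. Keratinocyte markers were abundant in every library. The 8 basal markers summed to 23399 to 41837 CPM and the 10 suprabasal markers to 27472 to 40129 CPM, against 36.4 to 82.6 CPM for 10 fibroblast markers and 1.82 to 4.22 CPM for 6 endothelial markers. Some libraries stood apart in markers of other cells. A20KIKO mouse 4 had 100.6 CPM over 10 neutrophil markers, where the other A20KIKO libraries had 9.81 to 12.8 and the A20WT libraries 3.55 to 13.1 CPM. The 8 melanocyte markers summed to 138.2, 231.7, 98.2 and 50.3 CPM in A20KIKO mice 1 to 4 and to 45.99 to 60.4 CPM in A20WT, with none at 0 and 0 of 8 passing the edgeR test (5 at an unadjusted p under 0.05). Of all 16512 tested genes, 2543 had an unadjusted p under 0.05 by edgeR. The part of the melanocytes in the results that follow was not tested. Across all genes, 3.49% of those tested changed (2.43% higher and 1.06% lower in A20KIKO) by edgeR's two-sided quasi-likelihood test, called at p under 0.05 after Benjamini-Hochberg adjustment.

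Among the 10 family members, 3 ligands changed and the remaining 4 ligands and 3 receptors did not pass the test. Epgn rose, and Ereg and Btc fell. This is 3 of 7 ligands, beside the 3.49% of all genes. The median log2 change was 0.45 over the 7 ligands and 0.14 over the 3 receptors, beside -0.0062 over all tested genes. The groups did not overlap in the same 3 genes, while 10.6% of all tested genes had groups that did not overlap, 5.78% with A20KIKO higher and 4.79% with A20KIKO lower.

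**Figure D1:**
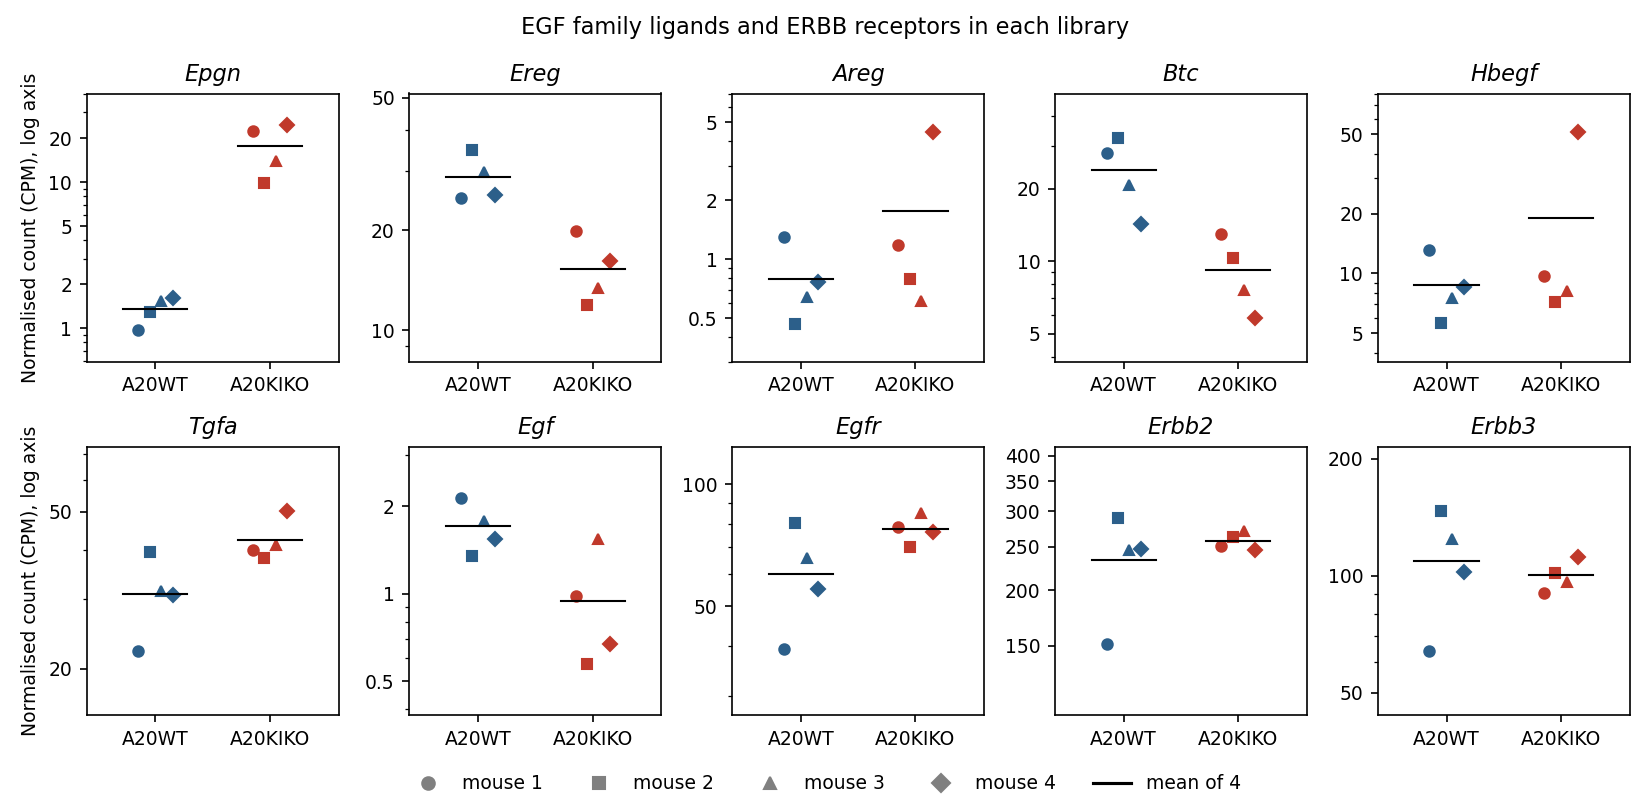
Normalised counts (CPM, log axis) of the 7 ligands and 3 receptors in each library; each symbol is 1 mouse and the line is the mean of the 4 mice of a group. Epgn is higher and Ereg and Btc are lower in all 4 A20KIKO libraries than in any A20WT library, and A20KIKO mouse 4 alone is high in Hbegf (51.3 CPM) and Areg (4.47 CPM).

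Epgn encodes epigen, a low-affinity ligand of EGFR. By its mean per unit of transcript length, it went from rank 8 of the 10 genes in A20WT to rank 3 in A20KIKO, above the mean of every other ligand. In A20KIKO mouse 2, though, Tgfa was above Epgn per kilobase of exon (5.88 against 5.43). In A20WT mice 1 to 4 Epgn measured 0.968, 1.30, 1.53 and 1.599 CPM, from 72 to 132 counts per library. A20KIKO mice 1 to 4 had 22.3, 9.81, 13.8 and 24.5 CPM. The lowest A20KIKO library was thus well above the highest A20WT library, and mice 1 and 4 were the higher pair within the A20KIKO group. Means were 1.35 ± 0.285 and 17.6 ± 6.96 CPM (SD, n = 4 each), so that Epgn rose 13.1-fold, with a log2 change of 3.71 (SE 0.30) and an edgeR adjusted p of 8.36e-05. It passed in each fit with 1 library left out (adjusted p 1.42e-05 to 0.00217).

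The genes whose levels followed Epgn most closely were interferon-stimulated. Among 10329 genes averaging 5 CPM or more, the highest Pearson correlations of log2 CPM with Epgn over the 8 libraries were those of Oasl2 (r = 0.998), an oligoadenylate synthetase-like gene, Rtp4 (r = 0.998), an interferon-induced chaperone of receptors, and Irf7 (r = 0.996), a transcription factor of the type I interferon response. The libraries share the difference between the groups, so any gene with a wide change in the same direction correlates with Epgn, and these values are a description. The order within the A20KIKO group was also shared in part: Irf7 had 188, 64.6, 85.6 and 153 CPM in A20KIKO mice 1 to 4, with mice 1 and 4 high and mouse 2 lowest, as for Epgn. In A20WT mice 1 to 4 it had 8.70, 10.6, 11.2 and 13.5 CPM.

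Markers of monocytes and macrophages were higher in the same libraries. The 12 markers summed to 108.3 to 192.7 CPM in A20KIKO and 65.9 to 107.8 CPM in A20WT. None was at 0 in all libraries, and Fcgr1 had 0 or 1 counts in each A20WT library. Of the 9 tested, 3 rose, the complement genes C1qa, C1qb and C1qc, beside 2.43% of all tested genes. Other lists held risen markers too: 1 of 12 for hair follicle and sebaceous gland and 1 of 8 for Langerhans cells. The hair follicle and sebaceous gland sums were 6315 to 8418 CPM in A20KIKO and 5505 to 6684 CPM in A20WT, with overlap. The Langerhans cell sums were 2870 to 3190 and 2297 to 3122 CPM, also with overlap. The sheets hold all these cells together, so more cells of a type and more RNA per cell cannot be told apart. The part of these cells in the change of Epgn was not tested.

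Ereg encodes epiregulin, a ligand of EGFR and ERBB4, and had the highest mean of the 7 ligands per transcript length in A20WT epidermis. Its values in A20WT mice 1 to 4 were 25.0, 34.8, 29.8 and 25.4 CPM. Those in A20KIKO mice 1 to 4 were 19.9, 11.9, 13.4 and 16.2 CPM, each below all A20WT libraries. Ereg fell from 28.8 ± 4.57 to 15.3 ± 3.51 CPM (SD, n = 4 each), to a level 1.88-fold lower (log2 change -0.91, SE 0.17, edgeR adjusted p = 0.0123). The fall passed with each library left out (adjusted p 0.00891 to 0.0447) but not when tested against a change of 1.5-fold (adjusted p = 0.400). An annotated antisense gene, Gm19610, overlaps Ereg and had 209 counts over the 8 libraries beside 12659 for Ereg. Without strand information, reads from the stretch they share cannot be told apart.

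Btc encodes betacellulin, also a ligand of EGFR and ERBB4, and had the widest fall of the family. It measured 28.2, 32.5, 20.7 and 14.3 CPM in A20WT mice 1 to 4. In A20KIKO mice 1 to 4 it measured 13.0, 10.3, 7.57 and 5.82 CPM. The groups came close without overlapping, since A20WT mouse 4 was only a little above A20KIKO mouse 1. Btc fell from 23.9 ± 8.05 to 9.17 ± 3.14 CPM (SD, n = 4 each), to a level 2.61-fold lower (log2 change -1.38, SE 0.29, edgeR adjusted p = 0.0228). It lost its call when A20KIKO mouse 3 was left out (adjusted p = 0.0792), or any of A20WT mice 1 to 3 (0.109, 0.0714 and 0.0564). The call was also lost with no filter on low counts (0.0815) and against a change of 1.5-fold (0.144).

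Some marker sums were lower in the A20KIKO libraries, as Ereg and Btc were. Those of basal keratinocytes were lower without overlap, and those of fibroblasts and chondrocytes with overlap. A20WT mouse 2, the highest in Ereg and Btc, had the lowest A20WT sums of fibroblast and chondrocyte markers. A20WT mouse 1, next in Btc and the lowest A20WT library in Ereg, had the highest chondrocyte sum, 15.1 CPM. The 7 markers of regulatory T cells and type 2 lymphoid cells summed to 417.7 to 446.8 CPM in A20KIKO and 545.2 to 587.6 CPM in A20WT. Of 4 tested, 0 passed, and their log2 changes ran from -0.40 to 1.32 with a median of 1.21. The sum, which the most abundant markers dominate, was thus lower while the median change was upward. The 8 basal keratinocyte markers summed to 23399 to 29054 CPM in A20KIKO and 31732 to 41837 CPM in A20WT, with none at 0. Of the 8, 1 passed the test as lower, Krt5, which was also the only 1 whose groups did not overlap. The Krt5 promoter expresses the Cre that only the A20KIKO mice carry. The part of the Cre construct in the Krt5 value was not tested. Krt14, another of the 8, had 14269 to 20357 CPM in A20KIKO and 15258 to 25733 CPM in A20WT, with overlap. It did not pass (log2 change -0.28, edgeR adjusted p = 0.537). The 10 fibroblast markers summed to 36.4 to 60.4 CPM in A20KIKO and 57.5 to 82.6 CPM in A20WT, and of 8 tested, with a median log2 change of -1.34, 1 passed as lower, the collagen gene Col6a1. The 8 chondrocyte markers summed to 3.26 to 5.68 and 4.07 to 15.1 CPM, and of 5 tested, with a median log2 change of -1.70, 1 passed as lower, the collagen gene Col11a1. The part of these cells in the falls of Ereg and Btc was not tested. Among genes of at least 5 CPM, the closest in pattern to Ereg were Foxn3 (r = 0.961), a forkhead transcription factor, Ppp2r5c (r = 0.958), a regulatory subunit of protein phosphatase 2A, and Itih5 (r = 0.954), a hyaluronan-associated matrix protein. Those closest to Btc were Mrgprb11-ps (r = 0.987), an annotated pseudogene, Ccni (r = 0.978), which encodes cyclin I, and Pter (r = 0.963), a phosphotriesterase-related gene, each over 8 libraries. Of these 6 genes, Itih5 and Mrgprb11-ps passed the edgeR test between the groups as lower in A20KIKO (adjusted p = 0.011 and 0.00389), and the other 4 did not pass.

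**Figure D2:**
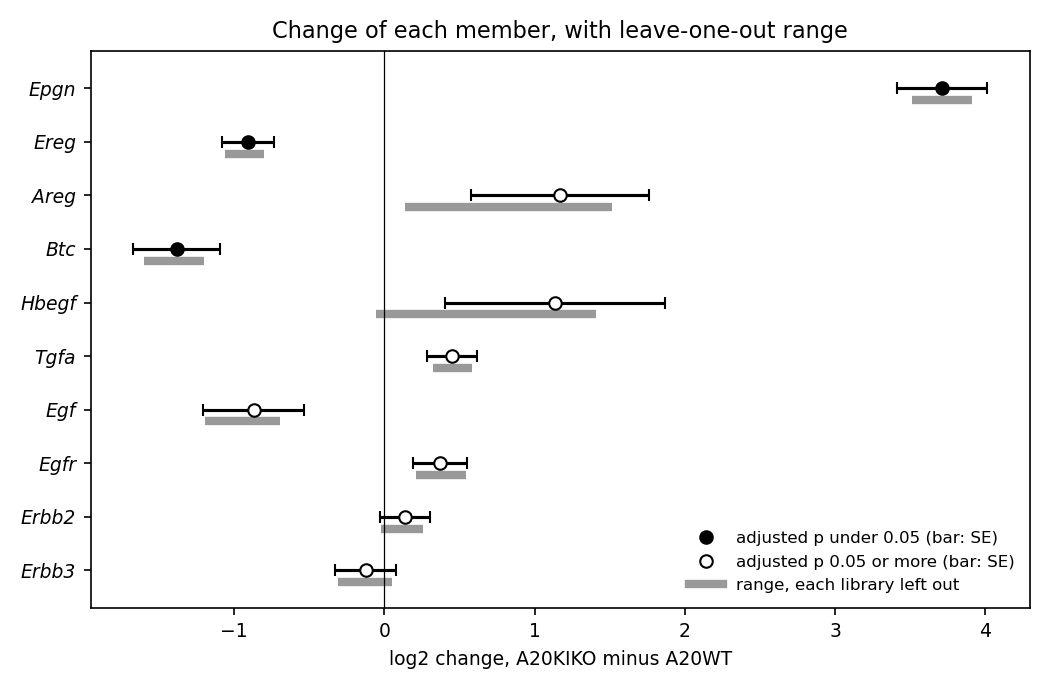
Log2 change of each member, A20KIKO minus A20WT (points, with bars of 1 SE; filled where the edgeR adjusted p was under 0.05), with the range of the change when each of the 8 libraries was left out (grey bars). Epgn, Ereg and Btc keep their direction throughout, while the grey bar of Hbegf reaches from 1.41 to -0.06.

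Hbegf and Areg, both transcripts that injured or inflamed epithelium is known to induce, were high in a single A20KIKO library. Hbegf, the precursor of HB-EGF, had 9.76, 7.22, 8.16 and 51.3 CPM in A20KIKO mice 1 to 4. The A20WT libraries had 13.2, 5.62, 7.54 and 8.52 CPM, so that mice 1 to 3 of the A20KIKO group lay within the A20WT range. The means of 19.1 ± 21.5 and 8.71 ± 3.21 CPM (SD, n = 4 each) did not pass the test (log2 change 1.13, SE 0.73, edgeR adjusted p = 0.547). Without A20KIKO mouse 4 the log2 change was -0.06 (adjusted p = 0.971).

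Areg encodes amphiregulin, an autocrine growth factor of keratinocytes. It was scarce, with 25 to 393 counts per library. A20KIKO mice 1 to 4 had 1.18, 0.796, 0.613 and 4.47 CPM, and A20WT mice 1 to 4 had 1.29, 0.469, 0.638 and 0.761 CPM. As with Hbegf, mice 1 to 3 of the A20KIKO group were within the A20WT range and mouse 4 was above it. The log2 change was 1.17 (SE 0.59, edgeR adjusted p = 0.390), and 0.13 without A20KIKO mouse 4 (adjusted p = 0.952).

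The library with high Hbegf and Areg was also the one with neutrophil transcripts. Ly6g, a defining neutrophil surface marker, was at 0 in 7 libraries and had 141 counts in A20KIKO mouse 4, and Retnlg, a granulocyte gene, had 1948 counts there and 0 or 1 elsewhere. Elane was the 1 of the 10 neutrophil markers at 0 in all libraries. Mast cell and basophil markers summed to 27.2 CPM in the same library and 0.870 to 2.94 CPM in the others, nearly all of it Hdc (25.8 CPM), while Fcer1a was at 0 in all libraries and Cpa3 at 0 in A20KIKO mouse 4. The part of these cells in the Hbegf and Areg values was not tested.

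Tgfa, the precursor of TGF-alpha and a major autocrine ligand of keratinocytes, was the ligand with the most counts. It had 39.9, 38.2, 41.1 and 50.1 CPM in A20KIKO mice 1 to 4. The A20WT libraries had 22.2, 39.4, 31.6 and 30.8 CPM, and of these only mouse 2 reached into the A20KIKO range. The difference between 42.3 ± 5.31 and 31.0 ± 7.01 CPM (SD, n = 4 each) did not pass the test (log2 change 0.45, SE 0.17, edgeR adjusted p = 0.198, unadjusted p = 0.0187).

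Egf, the founding ligand, was the scarcest member per transcript length. It had 2.14, 1.35, 1.79 and 1.54 CPM in A20WT mice 1 to 4 and 0.982, 0.571, 1.54 and 0.672 CPM in A20KIKO mice 1 to 4. A20KIKO mouse 3 overlapped with the A20WT libraries, and the other 3 A20KIKO libraries lay below them. The test did not pass (log2 change -0.87, SE 0.34, edgeR adjusted p = 0.223, unadjusted p = 0.0238), on 33 to 186 counts per library.

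None of the 3 receptors passed the test, and none had an unadjusted p under 0.05. Egfr, the receptor shared by all 7 ligands, had 78.4, 70.2, 85.1 and 76.4 CPM in A20KIKO mice 1 to 4. It had 39.2, 80.4, 65.7 and 55.1 CPM in A20WT mice 1 to 4, a wider spread in which mouse 2 lay within the A20KIKO range and the other 3 lay below it. The log2 change was 0.37 (SE 0.18, edgeR adjusted p = 0.364). An annotated antisense gene, Egfros, overlaps Egfr and had 818 counts over the 8 libraries beside 38021 for Egfr.

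Erbb2, the co-receptor without a known ligand of its own, had 250.3, 262.6, 270.9 and 246.5 CPM in A20KIKO mice 1 to 4. A20WT mice 2 to 4 had 289.5, 246.4 and 247.6 CPM, and A20WT mouse 1 was low at 151.7 CPM. The log2 change was 0.14 (SE 0.17, edgeR adjusted p = 0.773). Leaving out A20WT mouse 1 gave -0.02. The 3′ neighbour Mien1 overlaps Erbb2 on the opposite strand and had 13011 counts over the 8 libraries beside 135714 for Erbb2, so some reads cannot be assigned to 1 of the 2 genes without strand information.

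Erbb3, the kinase-impaired partner that binds neuregulins, had 90.5, 101.9, 96.7 and 112.2 CPM in A20KIKO mice 1 to 4 and 64.0, 147.3, 124.2 and 102.2 CPM in A20WT mice 1 to 4. Again the A20WT values spread on both sides of the A20KIKO values (log2 change -0.12, SE 0.20, edgeR adjusted p = 0.846). The coefficient of variation was 28.9%, 24.9% and 32.4% for Egfr, Erbb2 and Erbb3 in A20WT, and 7.91%, 4.37% and 9.15% in A20KIKO. A20WT mouse 1 was the lowest of all 8 libraries in the 3 receptors, Tgfa and Epgn. That library had the highest basal marker sum, 41837 CPM, and the part of this in its receptor values was not tested.

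Within a library, Erbb3 was lower relative to Egfr in the A20KIKO group. Per kilobase of exon, the Erbb3 level was 2.14 to 2.77 times that of Egfr in A20KIKO and 3.07 to 3.56 times in A20WT, without overlap. The corresponding ratio of Erbb2 to Egfr was 6.92 to 8.13 in A20KIKO and 7.82 to 9.77 in A20WT, with overlap. These ratios were computed after the values were seen and carry no test.

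Per unit of length, Erbb2 led the family in both groups and Erbb3 came second. Levels per length (RPKM, here CPM divided by the length of all annotated exons in kilobases) were 44.9 ± 11.2 for Erbb2 and 18.2 ± 5.90 for Erbb3 in A20WT (SD, n = 4). Ereg at 6.97 ± 1.11, Egfr at 5.31 ± 1.54, Btc at 5.30 ± 1.78 and Tgfa at 4.78 ± 1.08 RPKM followed in A20WT, and each overlapped with the next in that order. Hbegf came next at 1.80 ± 0.663 RPKM, then Epgn at 0.746 ± 0.158 and Areg at 0.650 ± 0.292, which overlapped, and last Egf at 0.151 ± 0.0304 RPKM.

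In A20KIKO epidermis the order below the first 2 places was different. Epgn took rank 3 at 9.76 ± 3.85 RPKM, followed by Egfr at 6.85 ± 0.541, Tgfa at 6.52 ± 0.818, Hbegf at 3.95 ± 4.44 and Ereg at 3.71 ± 0.851 RPKM (SD, n = 4 each), neighbours whose ranges overlapped. The Hbegf mean held 10.6 RPKM in A20KIKO mouse 4, while mice 1 to 3 had 2.02, 1.49 and 1.69 RPKM, each below Ereg in the same library. Btc at 2.03 ± 0.694 RPKM lay below the range of Ereg and overlapped with Areg at 1.45 ± 1.499 RPKM. Egf was again last at 0.0836 ± 0.0388 RPKM. Divided by the longest transcript in place of all exons, the A20WT levels were 3.02 for Hbegf, 6.85 for Tgfa and 0.358 for Egf, and Tgfa took rank 4 in both groups.

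The make-up of the ligand transcripts differed between the groups. Epgn made up 2.65% to 5.06% of the summed RPKM of the 7 ligands in A20WT libraries and 29.1% to 42.2% in A20KIKO libraries. Ereg went from 29.9% to 36.5% in A20WT to 9.59% to 16.4% in A20KIKO, and Btc from 18.1% to 30.8% to 3.15% to 12.2%. The share of Tgfa overlapped between the groups, at 16.9% to 27.1% and 18.9% to 31.5%. Divided by the longest transcript in place of all exons, the mean share in A20KIKO was 29.8% for Epgn and 29.9% for Tgfa. Hbegf held 6.90% to 8.00% in A20KIKO mice 1 to 3, while in mouse 4 it held 26.0%. The sum over the 7 ligands was 20.4 ± 2.74 RPKM in A20WT and 27.5 ± 9.98 RPKM in A20KIKO (SD, n = 4 each), with 18.7 RPKM in A20KIKO mouse 2 and 40.8 RPKM in mouse 4, so the groups overlapped. Shares sum to 100 by construction, so they are given as a description with no test.

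**Figure D3:**
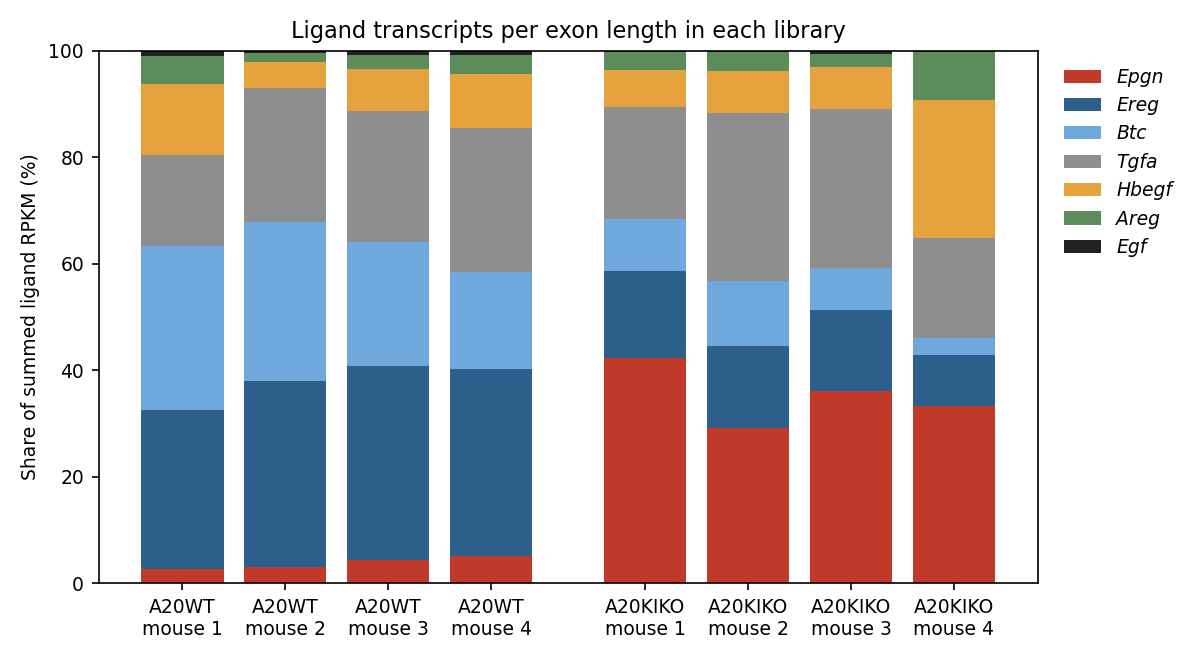
Share of each ligand in the summed RPKM of the 7 ligands (%), 1 stacked bar per library, A20WT on the left and A20KIKO on the right. Epgn fills 29.1% to 42.2% of the A20KIKO bars and 2.65% to 5.06% of the A20WT bars, and Hbegf widens to 26.0% in A20KIKO mouse 4.

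On chromosome 5 the 3 ligands that changed did not move together. Epgn rose while Ereg, 47.2 kb away, and Btc, 376 kb away, fell. Around the 4 chromosome 5 ligands, 11 other tested genes had their start within 500 kb of one of them, and 2 of the 11 rose and 0 fell, beside 2.43% higher and 1.06% lower among all tested genes. Cxcl1, a neutrophil-attracting chemokine at -136.2 kb from Epgn, on the side away from Btc, had 8.06, 6.47, 4.41 and 21.3 CPM in A20KIKO mice 1 to 4 and 0.577 to 1.54 CPM in A20WT (log2 change 3.26, SE 0.57, edgeR adjusted p = 0.0151), and it lost its call when any of A20WT mice 1 to 3 was left out (adjusted p 0.0644 to 0.0763) or with no filter on low counts (0.0767). Parm1, which encodes a mucin-like membrane protein and lies beyond Btc, 490.2 kb from Epgn, rose from 0.668 to 0.932 CPM in A20WT to 2.06 to 6.65 CPM in A20KIKO (log2 change 2.43, SE 0.33, edgeR adjusted p = 0.00184). Around the other 6 members, 135 tested genes lay within the same distance, of which 3 rose and 3 fell, a share near the 3.49% of all tested genes. Those that rose were Gsdma3, a gasdermin, with a log2 change of 1.12, Ikzf3, a lymphoid transcription factor, with 1.81, and Stat2, which carries interferon signals, with 1.68. Those that fell were the clock gene Nr1d1 with -0.62, the anion exchanger gene Slc4a9 with -1.23 and the sulfite oxidase gene Suox with -0.62 (edgeR adjusted p 0.00184 to 0.0342 over the 6 genes). Suox lost its call without any of A20KIKO mice 1, 3 and 4 or A20WT mice 2 to 4 (adjusted p 0.0690 to 0.108), and Nr1d1 when 1 of A20KIKO mice 1 and 2 or of A20WT mice 3 and 4 was left out (0.0523 to 0.0751).

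**Figure D4:**
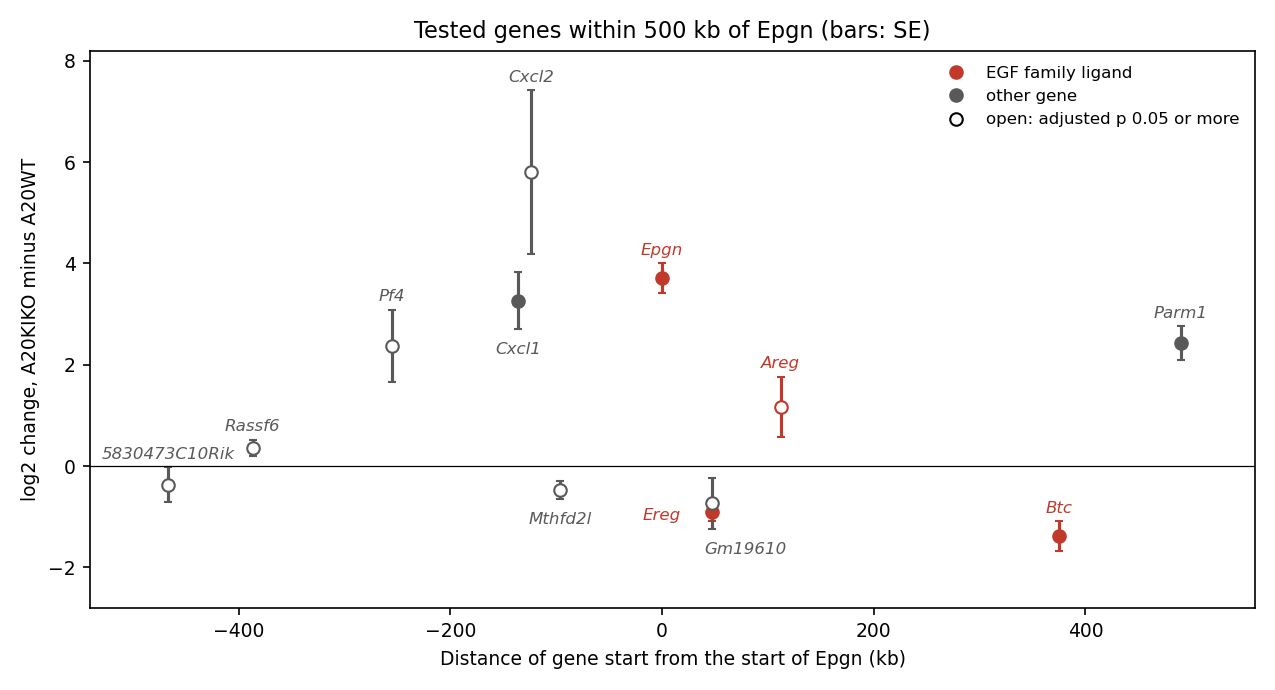
Log2 change (A20KIKO minus A20WT, bars of 1 SE) of Epgn and the 11 tested genes within 500 kb of it, against the distance of each gene start from that of Epgn in kb; open points had an edgeR adjusted p of 0.05 or more. Cxcl1, Epgn and Parm1 are filled points above 0, and Ereg and Btc filled points below 0.

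Other genes of ERBB signalling were mostly not called. Of 89 such genes in 5 lists, 87 were tested, 3 rose and 1 fell, or 4.598%, near the 3.49% of all tested genes.

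Among the remaining family members, Nrg1 rose and 2 of 3 tested genes did not pass. Nrg1, a neuregulin that binds ERBB3 and ERBB4, had 3.51, 1.59, 2.23 and 5.69 CPM in A20KIKO mice 1 to 4. It had 1.04, 1.26, 0.742 and 0.730 CPM in A20WT mice 1 to 4, below every A20KIKO library (log2 change 1.80, SE 0.38, edgeR adjusted p = 0.0207). Leaving out A20KIKO mouse 1 or 4 or A20WT mouse 1, 3 or 4 brought the adjusted p to 0.0527 to 0.0798. The receptor Erbb4 had at most 6 counts in any library and Nrg3 at most 1, and neither was tested.

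Of 12 sheddases, iRhoms and their regulators, which govern the release of ligands, 1 rose and 0 fell, with a median log2 change of 0.09. Timp3, an inhibitor of the sheddase ADAM17, rose from 66.4 ± 14.5 to 105.6 ± 16.3 CPM (SD, n = 4 each; log2 change 0.67, SE 0.17, edgeR adjusted p = 0.0492), and the adjusted p was 0.0512 to 0.151 when any of A20KIKO mice 1 to 3 or of A20WT mice 1, 3 and 4 was left out. With upper-quartile scaling it was 0.0556, with dispersions that were not made robust 0.0584 and by limma-voom 0.0590. Adam17 itself, named after its value was seen, had 86.6 ± 25.9 CPM in A20WT and 91.6 ± 11.8 CPM in A20KIKO (SD, n = 4 each; edgeR adjusted p = 0.910).

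Of 24 negative regulators, 0 rose and 1 fell, with a median log2 change of 0.03. The fallen gene was Znrf1, a ubiquitin ligase, at 73.9 ± 3.59 CPM in A20WT and 54.8 ± 3.16 CPM in A20KIKO (SD, n = 4 each; log2 change -0.43, SE 0.10, edgeR adjusted p = 0.0308). Without A20WT mouse 1 its adjusted p was 0.0315, and with any other single library left out it was 0.0501 to 0.117, and with no filter on low counts it was 0.0710. Errfi1, the feedback inhibitor of EGFR kinase activity, had 128.2 ± 21.8 and 137.3 ± 32.5 CPM (SD, n = 4 each; edgeR adjusted p = 0.862), and was named after its value was seen.

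Of 24 adaptors and RAS-ERK cascade genes 0 passed the edgeR test. An unadjusted p under 0.05 was found for 3 of the 24, beside 2543 of all 16512 tested genes. By the other methods, DESeq2 called 2, limma-voom 0 and limma-voom with sample weights 1 of the 24. Over all genes these methods called 1133, 551 and 946. Stat3 was among the 2 of DESeq2 (adjusted p = 0.0400). The most abundant were Stat3, a transcription factor downstream of several receptors, at 271.8 ± 46.4 and 410.2 ± 114 CPM (SD, n = 4 each; edgeR adjusted p = 0.127), and Hras, a RAS gene, at 318.0 ± 47.6 and 289.6 ± 15.1 CPM (edgeR adjusted p = 0.683). Stat3 had 579.0 CPM in A20KIKO mouse 4, 324.5 to 370.0 CPM in A20KIKO mice 1 to 3 and 205.4 to 305.3 CPM in A20WT.

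Of 24 transcripts that ERK signalling or EGF is known to induce, 1 rose and 0 fell, with a median log2 change of 0.17. Etv4, an ETS transcription factor, had 10.99, 11.2, 7.43 and 7.74 CPM in A20KIKO mice 1 to 4 and 4.12, 2.78, 4.20 and 5.87 CPM in A20WT mice 1 to 4, without overlap (log2 change 1.140, SE 0.23, edgeR adjusted p = 0.0174). Its adjusted p was 0.0695 without A20KIKO mouse 1 and 0.0601 without A20WT mouse 3.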

How the data were processed

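Polyadenylated RNA of the 8 epidermal samples was made into cDNA with SMART-Seq v4, then into Nextera libraries without strand or molecular identifiers, and read on 2 lanes, per the labels' protocols and the file headers. The deposited values are raw counts per gene and lane by the authors. HTSeq 0.6.1p1, STAR 2.4.2a and Picard 1.139 are named with the builds GRCh38 and GRCm38.p5, per the submitters' processing notes. Not given in the sources used here: settings and annotation release. The labels state fewer reads per sample than the files' mean of 70820780 counts per library.

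Lanes were summed. Symbols, positions and exon lengths came from GENCODE M21 (GRCm38), which matched 51633 of 51912 identifiers. edgeR 4.0.16 (R 4.3.3) fitted robust quasi-likelihood models to genes passing filterByExpr (minimum count 10), with TMM factors and group alone, two-sided, adjusted by Benjamini-Hochberg over 16512 genes. SE is the log2 change divided by the root of F. DESeq2 1.42.0 and limma 3.58.1 were alternatives, and the procedure was tested on simulated data. The p-values set the difference between the groups against the variation between mice, which the fit moderates over all tested genes. The presence of Cre is part of that difference.

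The members and gene lists were chosen with earlier results of these data known. Named genes were every member, up to 3 called genes per pathway list by adjusted p (or, with none called, the 2 most abundant), the 3 genes closest in pattern to each called member, and called genes within 500 kb of a member.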

Additional observations from a re-analysis of the deposited data

Results flagged for a closer look

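Of 20 sets of 4 values (10 genes in 2 groups), 2 held a value far from the other 3 by Dixon's test, where chance flags about 1 in 20. Both were in A20KIKO mouse 4. Hbegf was 51.3 CPM there (Dixon ratio 0.942), and Areg was 4.47 CPM (Dixon ratio 0.853). That library also had the high sum of neutrophil markers, 100.6 CPM, and the part of this in the 2 values was not tested.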

How the results depend on the processing

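With 4 mice per group, small changes of scarce genes such as Areg and Egf were measured on few counts. Epgn passed under all 21 alternatives (adjusted p up to 0.00217). Ereg passed in 20 of 21, and tested against a 1.5-fold change its adjusted p was 0.400. Btc passed in 15 of 21; its adjusted p was 0.0815 with no count filter, 0.144 against 1.5-fold, and 0.0119 to 0.109 with single libraries left out, against 0.00891 to 0.0447 for Ereg and 1.42e-05 to 0.00217 for Epgn. The number of members called was 3, with 1 against a 1.5-fold change, 2 with no count filter and 2 to 3 with single libraries left out.

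The count of changed genes, 576, was 374 with at least 5 CPM in 4 libraries, 200 against a 1.5-fold change, 1133 by DESeq2, 946 by limma-voom with sample weights, and 348 (without A20KIKO mouse 1) to 619 with single libraries left out, including 355 without A20WT mouse 3. Fewer samples or genes entered some of these fits; otherwise the cause was not tested. Against a 1.5-fold change, Nrg1 (adjusted p = 0.0962), Etv4 (0.199), Timp3 and Znrf1 (both 0.999998) lost their calls.

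Members that did not pass stayed so. With single libraries left out, adjusted p was 0.268 to 0.952 for Areg, 0.431 to 0.971 for Hbegf, 0.0816 to 0.421 for Tgfa, 0.0865 to 0.426 for Egf, 0.125 to 0.563 for Egfr, 0.510 to 0.948 for Erbb2 and 0.226 to 0.948 for Erbb3. The sign turned for Hbegf without A20KIKO mouse 4 (log2 change -0.06, adjusted p = 0.971), Erbb2 without A20WT mouse 1 (-0.02, 0.948) and Erbb3 without A20WT mouse 2 (0.05, 0.930). The filter of 5 CPM left out Areg and Egf, and DESeq2 gave no adjusted p for Hbegf.

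Both groups number their mice 1 to 4. Deviations of same-numbered libraries from their group means correlated at -0.01 to 0.24, over 0.1 in 1 of 4 pairs. In the 12 pairs of different number the correlations were -0.24 to 0.23, over 0.1 in 3. With so few pairs, these values cannot decide whether same-numbered mice were paired or shared a batch. With the replicate number as a block, 551 genes and 3 members were called (Epgn 0.000142, Ereg 0.0342, Btc 0.00101 as adjusted p), while Nrg1 (0.0580) and Znrf1 (0.0742) were not, and 2 of the 4 A20KIKO libraries correlated best with their own number.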
